A study of Rattus norvegicus with 16 samples.

Results

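The 10 genes described here are the 3 chains of complement C1q (C1qa, C1qb and C1qc) and 7 genes of microglia and other macrophages or of their blood-borne relatives (Ptprc, Lyz2, Pf4, Cd93, Aif1, Csf1r and Cd68), out of 10411 genes measured. They were chosen on their measured changes from T0 averaged over CA1 and CA3, so those changes are given below as a description and are not tested. Rat hippocampal slices had been kept in organotypic culture, in which neurons and glia of the slice stay together, and RNA of the CA1 and CA3 fields was measured on 16 Affymetrix rat arrays. Each field was sampled at T0, 30 min, 3 h and 12 h with 2 biological replicates, which gives 8 groups of 2 arrays. The subject of the series is oxidative stress; the agent, its dose, how T0 relates to it, and the rats' strain and age are not stated by the sources at hand. All groups share the slice culture and the labelling in 2 cycles, which amplifies RNA. The labels do not say whether biological replicates came from separate animals, so p-values measure only the spread between these arrays.

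Microglia are the resident macrophages of the brain. They depend on signalling through the receptor Csf1r, clear debris through lysosomes, and are the main source of C1q in brain tissue. C1q is built of A, B and C chains, binds to surfaces such as antibody complexes, dying cells and some synapses, and starts the classical complement pathway. C1qb, C1qc and C1qa follow each other in this order on rat chromosome 5, with no other gene of the RefSeq table (assembly GRCr8) between them. Ptprc (CD45) is the tyrosine phosphatase of leukocyte membranes, Lyz2 is lysozyme, and Cd68 is a lysosomal membrane glycoprotein of phagocytes. Aif1 encodes Iba1, the actin-binding protein used to stain microglia. Pf4 is a chemokine best known from platelet granules, and Cd93 is a lectin-like membrane receptor of endothelial and myeloid cells.

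The stretches of 250 bases before the gene start of C1qa, C1qb and Cd68 are shown because these are promoters of genes that were low together at 12 h. They come from RefSeq on GRCr8, from the minus strand, at chr5:154419934-154420183 for C1qa, chr5:154407828-154408077 for C1qb and chr10:54882442-54882691 for Cd68. Capitals mark GAGGAA, the core of the PU box that the macrophage factor PU.1 binds, or TTCCTC, the same letters on the other strand.
C1qa: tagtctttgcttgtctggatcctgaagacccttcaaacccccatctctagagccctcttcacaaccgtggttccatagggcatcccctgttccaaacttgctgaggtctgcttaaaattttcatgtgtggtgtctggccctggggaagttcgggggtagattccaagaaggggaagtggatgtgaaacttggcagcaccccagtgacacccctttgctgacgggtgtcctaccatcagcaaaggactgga
C1qb: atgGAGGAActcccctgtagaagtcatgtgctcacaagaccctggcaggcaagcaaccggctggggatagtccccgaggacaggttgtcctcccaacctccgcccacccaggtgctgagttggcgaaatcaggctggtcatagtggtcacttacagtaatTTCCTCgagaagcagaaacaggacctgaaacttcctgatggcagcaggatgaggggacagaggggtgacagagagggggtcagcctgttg
Cd68: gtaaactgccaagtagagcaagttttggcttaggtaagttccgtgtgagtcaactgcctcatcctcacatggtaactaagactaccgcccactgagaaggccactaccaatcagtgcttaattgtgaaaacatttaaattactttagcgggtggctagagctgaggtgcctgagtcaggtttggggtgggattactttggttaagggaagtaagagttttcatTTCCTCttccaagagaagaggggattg

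The motif GAGGAA occurred 2 times in the C1qb stretch, 1 time in that of Cd68 and 0 times in that of C1qa, on either strand. Of 33469 rat promoters in the table, 23.3% hold it. This share was counted over 300 bases (250 before the start and 50 after it), a longer window than shown. The table gave a promoter for 6 of the 10 genes. In those of Ptprc and Lyz2 the motif occurred 1 time each and in that of Csf1r 2 times. A match is a description of letters and not a bound site.

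The 10 genes have 13 probe sets, of which the brightest stands for each gene. Values are log2 expression values as deposited, so a difference of 1 is a 2-fold difference. Levels of different genes are not compared, because each probe set has its own brightness. All 10 genes were lower at 12 h than at T0: averaged over both regions, the differences ran from -3.04 for Cd93 to -1.36 for Csf1r, with a median of -2.05, while the median over all 15866 probe sets was -0.025. At 30 min the median of the 10 was -0.70 and at 3 h -0.825. RNA of whole tissue was measured, so fewer cells of a type and less RNA per cell cannot be told apart.

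**Figure D1:**
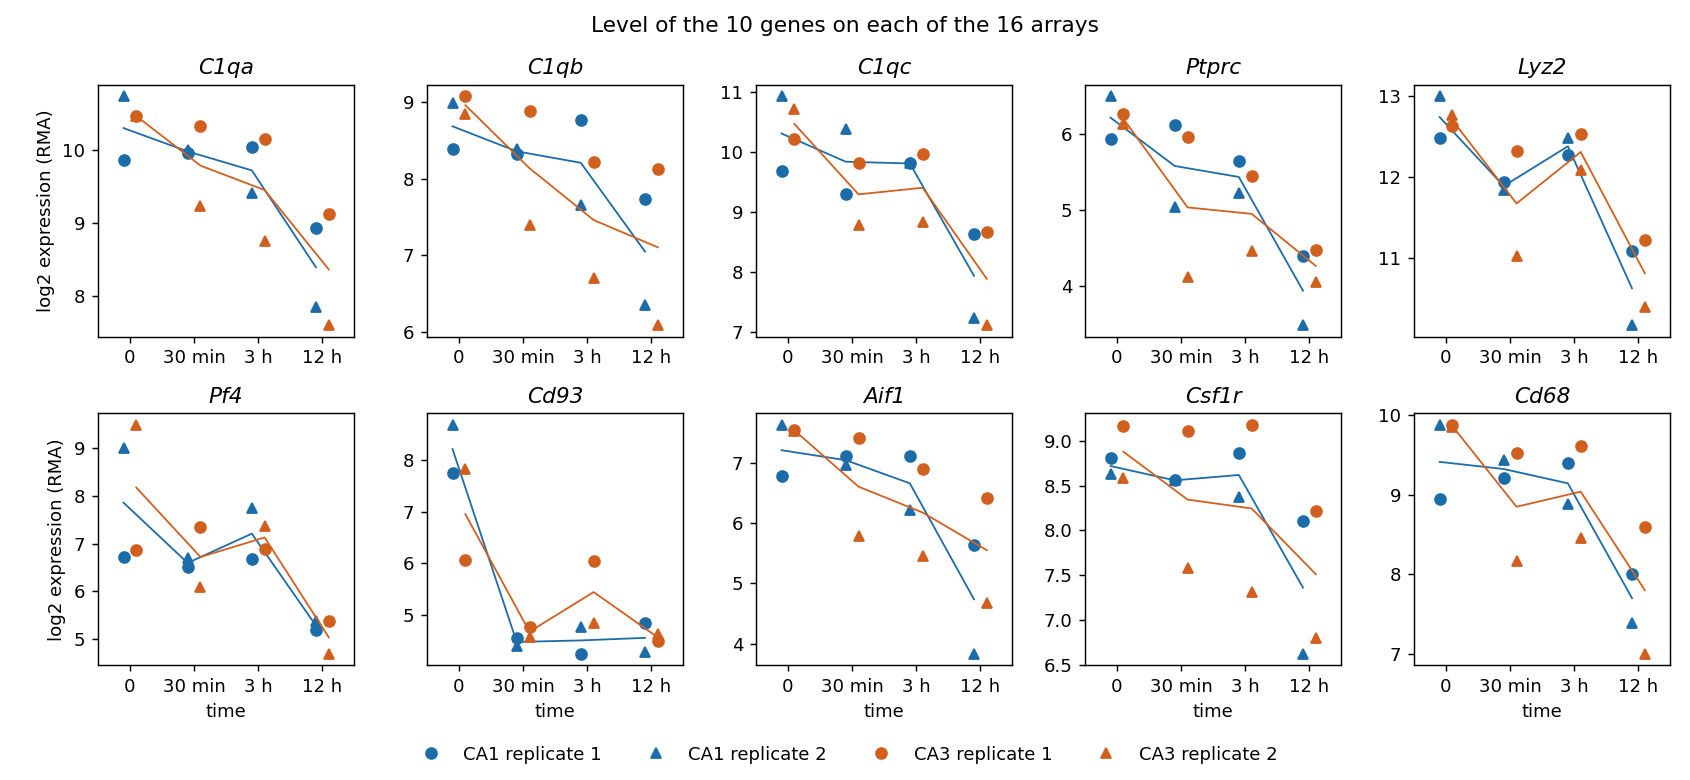
Log2 expression (vertical axis) of the 10 genes at T0, 30 min, 3 h and 12 h (horizontal axis). Each point is 1 array, circles for replicate 1 and triangles for replicate 2, blue for CA1 and orange for CA3; lines join the means of 2 arrays. In each panel the 4 arrays of 12 h lie below the 4 of T0, and the drop of Cd93 is already present at 30 min.

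The C1q chains come first. C1qa read 9.87 and 10.74 in CA1 at T0 (replicates 1 and 2), 9.96 and 10.01 at 30 min, 10.04 and 9.41 at 3 h, and 8.94 and 7.85 at 12 h. In CA3 it read 10.47 and 10.47, then 10.34 and 9.24, then 10.15 and 8.76, and at last 9.13 and 7.60. The 12 h arrays lay below all T0 arrays, the lowest being the replicate 2 arrays, and the 30 min arrays overlapped those of T0. The difference from T0 averaged over both regions was -0.50 at 30 min, -0.80 at 3 h and -2.01 at 12 h (standard error 0.44), the last being 4.02-fold.

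C1qb read 8.38 and 8.98 at T0 in CA1, 8.32 and 8.39 at 30 min, 8.76 and 7.65 at 3 h, and 7.74 and 6.36 at 12 h. The CA3 arrays gave 9.07 and 8.84, 8.88 and 7.39, 8.21 and 6.71, and 8.12 and 6.09 at the same times. Replicate 2 of CA3 was the lowest array of C1qb at 30 min, 3 h and 12 h, while replicate 1 of CA3 stayed above 8. Over both regions C1qb differed from T0 by -0.57, -0.99 and -1.74 (standard error 0.54).

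For C1qc, the CA1 arrays read 9.69 and 10.93 at T0, 9.30 and 10.38 at 30 min, 9.81 and 9.81 at 3 h, and 8.64 and 7.23 at 12 h. Those of CA3 read 10.22 and 10.72, 9.81 and 8.78, 9.97 and 8.84, and 8.66 and 7.11. Its 2 CA1 replicates at 3 h were equal to the second decimal and parted again at 12 h. The difference from T0 was -0.83, -0.79 and -2.48 at the 3 later times (standard error 0.49).

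The 3 chains moved together across arrays. Each correlated with the mean of the 3 at 0.993 (C1qa), 0.965 (C1qb) and 0.972 (C1qc) over 16 arrays, and at 0.937 to 0.990 after the mean of each group of 2 arrays was taken off. These correlations share arrays, probes of neighbouring genes and, through the mean, the chains themselves, and are descriptions only.

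Of the surface proteins, Csf1r, the receptor for Csf1 and Il34 on which microglial survival depends, moved least. It read 8.81 and 8.63 in CA1 at T0, 8.56 and 8.56 at 30 min, 8.87 and 8.37 at 3 h, and 8.10 and 6.62 at 12 h. In CA3 the values were 9.17 and 8.59, 9.11 and 7.58, 9.18 and 7.31, and 8.22 and 6.80. Replicate 1 of CA3 held its level up to 3 h and was lower at 12 h, whereas replicate 2 was already low at 30 min. The averages differed from T0 by -0.35, -0.37 and -1.36 (standard error 0.51).

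Ptprc read 5.94 and 6.50 in CA1 at T0, 6.13 and 5.04 at 30 min, 5.65 and 5.23 at 3 h, and 4.40 and 3.49 at 12 h. Its CA3 values were 6.27 and 6.14, 5.96 and 4.12, 5.45 and 4.46, and 4.48 and 4.06. All 4 arrays of 3 h, and all 4 of 12 h, lay below those of T0, and the differences were -0.90, -1.01 and -2.10 (standard error 0.42). The other Ptprc probe set stayed between 3.63 and 4.0 on all arrays (-0.05 at 12 h), so the course of Ptprc rests on 1 probe set. Its 12 h values of 3.49 to 4.48 lay below the array medians of 5.81 to 5.94.

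Cd93 was low from 30 min on. In CA1 it read 7.75 and 8.69 at T0, then 4.55 and 4.39 at 30 min, 4.24 and 4.76 at 3 h, and 4.83 and 4.27 at 12 h. In CA3 it read 6.07 and 7.84, then 4.77 and 4.57, 6.04 and 4.84, and 4.49 and 4.63. Its T0 arrays stood apart from all later ones, narrowly in CA3 replicate 1, where 6.07 at T0 was followed by 6.04 at 3 h. The differences from T0 were -3.02, -2.62 and -3.04 (standard error 0.39), so that 99.5% of the 12 h difference was present at 30 min, against 24.6% to 47.6% in the other 9 genes. The other Cd93 probe set lay between 3.95 and 4.57 throughout (-0.08 at 12 h), so this course too rests on 1 probe set. Apart from 6.04 in CA3 at 3 h, all arrays after T0 read 4.24 to 4.84. These values lay below the array medians of 5.81 to 5.94, so a further fall after 30 min may not have been visible.

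Pf4 differed most between replicates at T0, with 6.72 and 9.0 in CA1 and 6.86 and 9.49 in CA3. It read 6.50 and 6.69 in CA1 and 7.34 and 6.10 in CA3 at 30 min, and 6.68 and 7.74 in CA1 and 6.88 and 7.38 in CA3 at 3 h. At 12 h the values were 5.19 and 5.37 in CA1 and 5.38 and 4.69 in CA3, below the array medians of 5.81 to 5.94. The 12 h arrays lay below all T0 arrays. The differences from T0 were -1.36, -0.85 and -2.86 (standard error 0.62), and replicate 1 alone gave 0.13 at 30 min against -2.85 in replicate 2.

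Of the remaining genes, Lyz2 read 12.48 and 12.99 in CA1 at T0, 11.93 and 11.84 at 30 min, 12.27 and 12.48 at 3 h, and 11.08 and 10.17 at 12 h. In CA3 it read 12.63 and 12.76, 12.32 and 11.02, 12.53 and 12.08, and 11.22 and 10.40. It was below all T0 arrays at 30 min, overlapped them at 3 h and was below them again at 12 h. The differences were -0.94, -0.38 and -2.0 (standard error 0.31).

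Cd68 read 8.95 and 9.88 in CA1 at T0, 9.21 and 9.44 at 30 min, 9.40 and 8.89 at 3 h, and 8.01 and 7.39 at 12 h. Its CA3 arrays read 9.88 and 9.85, 9.53 and 8.17, 9.62 and 8.46, and 8.60 and 7.0. At T0 replicate 1 of CA1 was low and the other 3 arrays lay within a few hundredths of each other. The differences from T0 were -0.55, -0.55 and -1.89 (standard error 0.43).

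Aif1 read 6.79 and 7.63 in CA1 at T0, 7.12 and 6.97 at 30 min, 7.11 and 6.21 at 3 h, and 5.64 and 3.83 at 12 h. In CA3 it read 7.55 and 7.53, 7.42 and 5.79, 6.90 and 5.45, and 6.42 and 4.68. The CA1 replicate 1 array of T0 was again low, and CA3 replicate 1 of 12 h (6.42) came close to it. The differences from T0 were -0.55, -0.96 and -2.23 (standard error 0.55). The other Aif1 probe set, between 4.82 and 5.63, differed by 0.09 at 12 h, so the course of Aif1 rests on 1 probe set. Its 12 h values of 5.64, 3.83 and 4.68 lay below the array medians of 5.81 to 5.94.

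At an adjusted p under 0.05 over all probe sets, 1 of the 10 genes was called lower at 30 min (Cd93), 1 at 3 h (Cd93) and 6 at 12 h (C1qa, C1qc, Ptprc, Lyz2, Pf4 and Cd93). Of all probe sets, 0.101%, 0.158% and 1.23% were called lower at these times. Because the genes were chosen on these contrasts, nothing is read from the counts. All 4 arrays lay below all 4 of T0 for 2 of the 10 genes at 30 min (Lyz2 and Cd93; 3.66% of all probe sets), for 2 at 3 h (Ptprc and Cd93; 3.69%) and for 10 at 12 h (8.0%). When the CA1 and CA3 arrays of one time and replicate number, which deviated together, were averaged to 1 value, 0 of the 10 were called at any time in limma, and 0.0% of all probe sets (at 12 h, 1664 of them had an unadjusted p under 0.05). The 12 h count was 1 without any one of the replicate 2 arrays of T0 or 12 h, and 3 without the CA1 replicate 1 array of either time. The call of Cd93 at 30 min was lost without any one of 7 arrays (all 4 of 30 min, both of CA1 and replicate 2 of CA3 at T0). That at 3 h was lost without any one of 11 (all but replicate 1 of both regions at T0, both 30 min arrays of CA3 and CA3 replicate 1 of 3 h).

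The size of the decline differed between replicate numbers. In replicate 1 the median difference from T0 over the 10 genes was -0.09, -0.115 and -1.23 at the 3 later times, and in replicate 2 it was -1.23, -1.50 and -2.79. Replicate 2 gave the larger fall in 10 of 10 genes at each time. Part of this lay in the T0 arrays, where replicate 2 minus replicate 1 within a region had a median of 0.535. Of these 20 differences 6 were below 0. The same median was -0.615 at 30 min, -0.77 at 3 h and -1.23 at 12 h. At 12 h all 10 genes were lower than at T0 in both numbers, by -2.25 to -0.80 in replicate 1 and by -4.22 to -1.90 in replicate 2. At 30 min and 3 h, 8 and 7 of the 10 genes were lower in replicate 1 and 10 in replicate 2. The labels do not link a number across times.

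**Figure D2:**
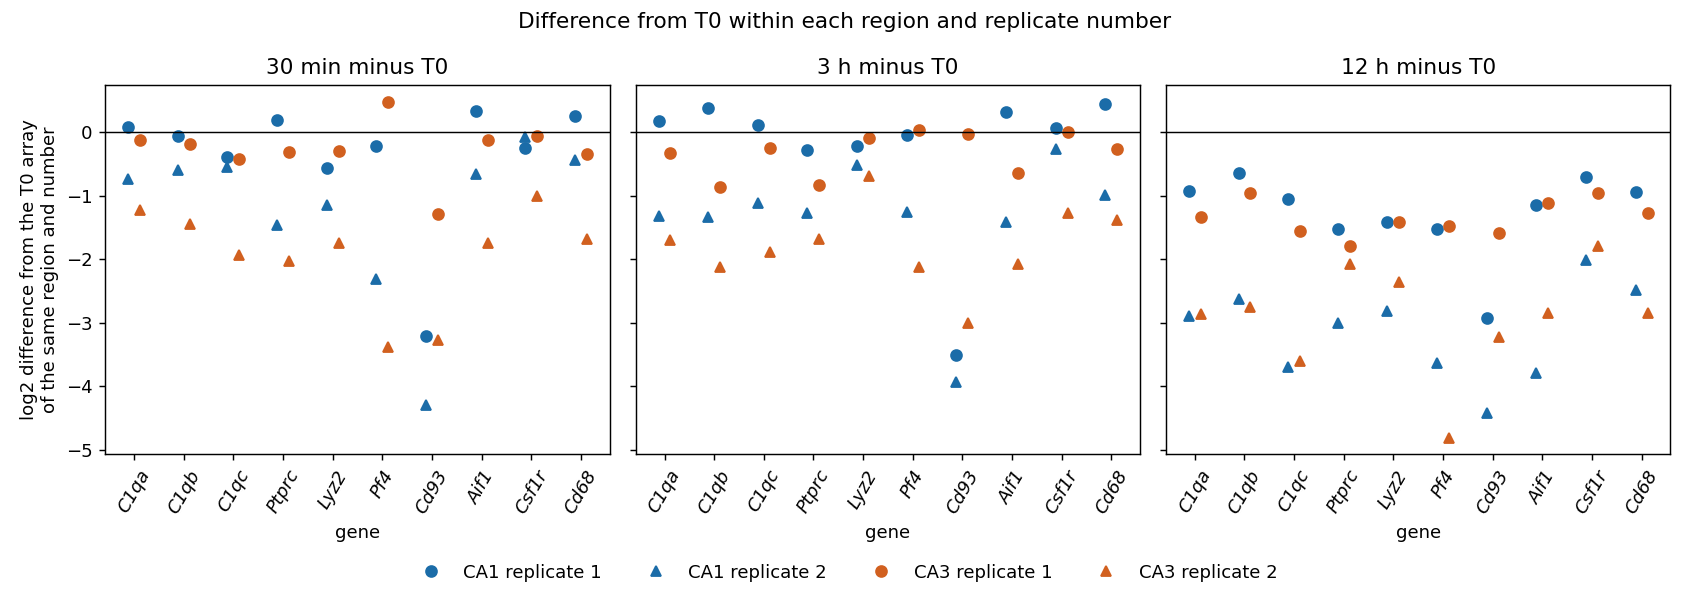
Log2 difference from the T0 array of the same region and replicate number (vertical axis) for each gene (horizontal axis) at 30 min, 3 h and 12 h. Each point is 1 difference between 2 arrays; circles are replicate 1, triangles replicate 2, blue CA1 and orange CA3. Within a region triangles lie below circles except for Csf1r in CA1 at 30 min, and at 12 h all points lie below 0.

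Control signals also differed between the replicate numbers, in part along with the 10 genes. The mean log2 signal of the Bacillus transcripts, which are added to RNA before labelling, was 4.26 in the replicate 2 arrays of 30 min and 4.34 in those of 12 h, against 5.15 to 6.36 in the other 6 pairs of arrays. The GAPDH 3' minus 5' signal, which grows as RNA is shortened, was 1.32 to 2.01 in the replicate 1 pairs and 2.41 to 3.93 in the replicate 2 pairs, highest at 3 h. How these signals went with the 10 genes differed between times and between the signals. At 3 h the median level of the 10 genes was lower in replicate 2 than in replicate 1 (7.7 against 8.75). The GAPDH signal was higher in replicate 2 at 3 h (3.93 against 1.81), and so was the Bacillus signal (5.99 against 5.54). At T0 both the GAPDH signal (2.85 against 2.01) and the median of the 10 genes (9.08 against 8.86) were higher in replicate 2. The Bacillus signal was lower there (6.08 against 6.36). The part of the GAPDH signal in the differences of the 10 genes was not tested. With the Bacillus signal as a covariate, the median difference of the 10 genes was -0.23 at 30 min, -0.70 at 3 h and -1.40 at 12 h. When the 30 min and 12 h arrays of replicate 2 were left out, it was -0.25 at 30 min and -1.46 at 12 h, and -0.35 at 3 h when those of 3 h were left out. Neither the covariate nor the first of these exclusions left any of the 10 genes called at 12 h, although all 10 stayed below T0.

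The comparison of CA1 with CA3 was not used to choose the genes and was tested. No difference was detected for any of the 10. Averaged over the 4 times, CA1 minus CA3 ran from -0.05 for Aif1 (CA1 6.41, CA3 6.47) to 0.21 for C1qc (CA1 9.47, CA3 9.26), with standard errors of 0.22 to 0.44. The 95% intervals of this fit, which does not use the pairing of arrays, reached from -0.99 to 1.01 at their widest (Pf4 and C1qb). A difference of about 2-fold lies within these, whereas for Lyz2 the interval was -0.45 to 0.52. On the differences within pairs the standard errors were smaller, from 0.13 (Ptprc) to 0.22 (C1qc), with 0.17 for Pf4 and 0.18 for C1qb. The adjusted p was 1.0 for each gene in limma, and 0.8 to 1.0 when tested on the 8 differences within pairs. Of all probe sets, 0.0% were called in the first fit, where 510 had an unadjusted p under 0.05, and 0.208% in the second.

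Within pairs the sign of the difference went with the replicate number. In replicate 1, CA1 was below CA3 in 34 of 40 differences (10 genes at 4 times), with a median of -0.28. In replicate 2, CA1 was above CA3 in 32 of 40, with a median of 0.38. C1qc ranged most among the C1q chains, from -0.53 in the replicate 1 pair of T0 to 1.60 in the replicate 2 pair of 30 min. The 40 differences are not independent, since the genes share arrays.

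**Figure D3:**
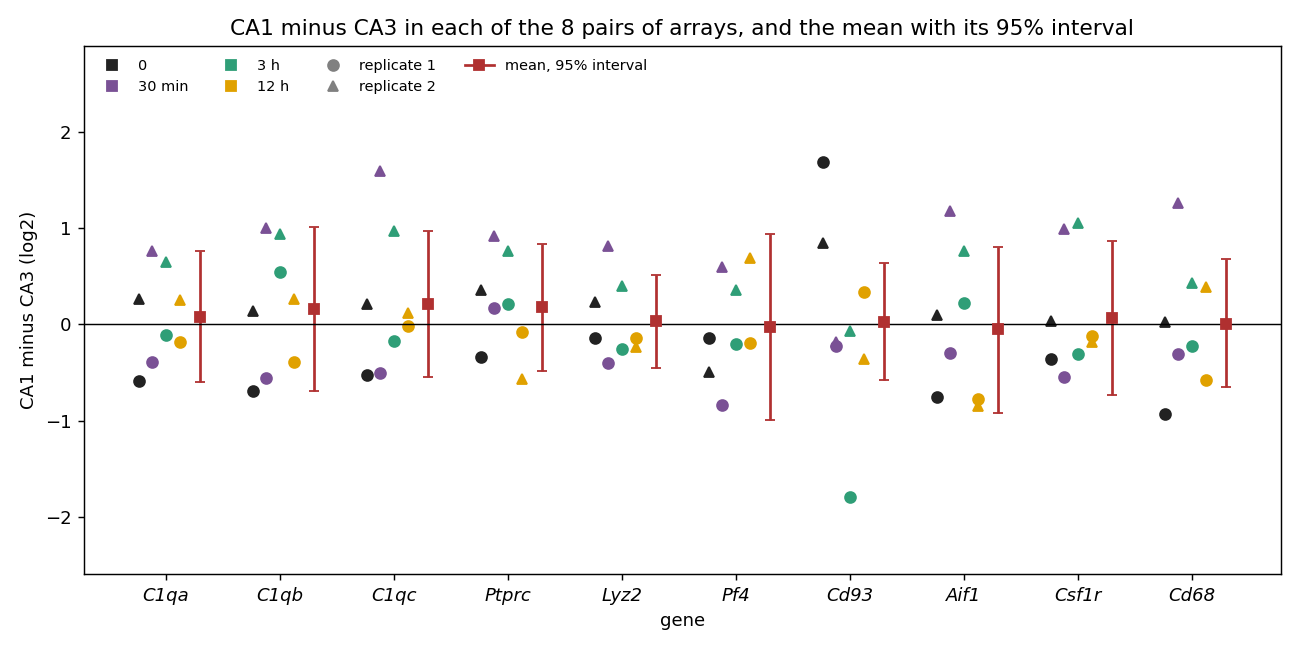
CA1 minus CA3 on the log2 scale (vertical axis) for each gene (horizontal axis). Small symbols are the 8 pairs of arrays, coloured by time, with circles for replicate 1 and triangles for replicate 2. Red squares and bars are the mean over the times and its 95% interval from the fit that does not use the pairing. All 10 intervals include 0, and most circles lie below 0 and most triangles above it.

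Cd93 was the only one of the 10 whose interval left out 0 at T0, with 8.22 in CA1 and 6.96 in CA3, a difference of 1.27 ± 0.55 (interval 0.04 to 2.49, adjusted p = 1.0 in limma). Its fall at 3 h was larger in CA1 than in CA3 (interaction on the log2 scale -2.20 ± 0.78, interval -3.94 to -0.47, adjusted p = 1.0), which did not pass the threshold. At 30 min and 12 h the interaction of Cd93 was -1.47 ± 0.78 and -1.28 ± 0.78. On the differences within pairs the standard error of these interactions was 0.53, also without a call. All CA1 arrays of Cd93 after T0, and those of CA3 but 6.04, lay below the array medians, which limits a comparison of the falls. For the other 9 genes the difference between regions in the change from T0 lay between -0.49 and 1.02, and 0 of the 10 genes passed at any time.

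The remaining genes of microglia and macrophages were then examined from a list of 53, of which 35 were measured. Some genes of this list had been in another list whose result in these data was known, so its calls are no fresh test. The median difference of the 35 from T0 was -0.349 at 30 min, -0.324 at 3 h and -1.15 at 12 h. At that last time 34 of 35 were below 0. In limma 2 of the 35 fell at 12 h, 0 rose, and 0 were called at 30 min or 3 h; of all probe sets, 1.23% were called lower and 0.838% higher at 12 h. Ctss, the lysosomal protease cathepsin S, fell by 1.73 ± 0.36 (adjusted p = 0.0423), from 9.77 and 10.32 in CA1 and 10.47 and 10 in CA3 at T0 to 8.66 and 8.08 in CA1 and 9.02 and 7.89 in CA3 at 12 h. Inpp5d, which encodes the inositol phosphatase SHIP1 of blood cells, fell by 1.12 ± 0.23 (adjusted p = 0.0403), from 6.78, 6.93, 7.09 and 6.32 to 5.77, 5.85, 5.60 and 5.42 in the same order. The 4 arrays of 12 h lay below those of T0 in both genes. Tested in limma on the means of the regions in each pair, 0 of the 35 were called, and 11 had an unadjusted p under 0.05. The call of Ctss held in limma in 2 of 16 fits without 1 array, those without either 30 min array of CA3, and that of Inpp5d in 6 of 16, with adjusted p from 0.00974 to 0.492 and from 0.0145 to 0.464 over their alternatives.

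The adaptors through which myeloid receptors signal, and the other preselected genes of the list, did not pass the threshold. Fcer1g, the common Fc receptor gamma chain, averaged 10.32 at T0 and 8.32 at 12 h, a difference of -2.0 ± 0.65 (adjusted p = 0.134). Tyrobp (DAP12) differed by -1.76 ± 0.65 (adjusted p = 0.181) and the tetraspanin Cd53 by -2.38 ± 0.77 (adjusted p = 0.133). Laptm5, a lysosomal protein of blood cells, differed by -1.72 ± 0.51 (adjusted p = 0.11) and Irf8, a transcription factor of the myeloid lineage, by -1.56 ± 0.50 (adjusted p = 0.129). P2ry12, the ADP receptor of resting microglia, was named after its values were seen and differed by -1.98 ± 0.71 (adjusted p = 0.169), and Tmem119, named likewise, by -0.44 ± 0.36 (adjusted p = 0.619).

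These 35 genes split by replicate in the same manner. In replicate 1 their median difference was -0.07, -0.07 and -0.62 at the later times, and in replicate 2 -0.80, -0.87 and -1.49. With the Bacillus signal as a covariate the 12 h median was -0.42, with 26 of 35 below 0, and leaving out the 30 min and 12 h arrays of replicate 2 gave -0.76, with 33 of 35 below 0. The part of the control signals in these differences beyond those fits was not tested.

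Another pair of defining microglial genes lay below the array medians. Itgam (CD11b) lay between 4.91 and 5.66 on the 16 arrays and differed by -0.07 ± 0.18 at 12 h, and Cx3cr1, the fractalkine receptor, lay between 4.75 and 5.61 and differed by 0.06 ± 0.19; the array medians were 5.81 to 5.94. Trem2 and Spi1 were not analysed here.

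Of 41 complement genes beyond C1q 27 were measured. At 12 h 0 were called lower and 1 higher, where 1.23% and 0.838% of all probe sets were called. At such shares a count of 0 in a list of this size says little of its genes. Their median difference at 12 h was -0.138, and -0.41 over the 16 with a mean log2 of at least 5, of which 11 were below 0. C1r and C1s, the proteases that form the C1 complex with C1q, differed by -0.50 ± 0.30 and -0.64 ± 0.68 (adjusted p = 0.444 and 0.739). C3, the central component of all complement pathways, differed by -0.67 ± 0.76 (adjusted p = 0.766). The inhibitors Serping1 and Clu differed by 0.40 ± 0.62 and 1.80 ± 1.18 (adjusted p = 0.854 and 0.496). Clu ranged from 6.55 to 12.61 over the arrays, and C3 reached 9.51 on the CA1 replicate 1 array of 3 h against 5.30 on the CA3 replicate 2 array of that time. The C5a receptor C5ar1, named after its values were seen, was the lowest of the list at -1.37 ± 0.50 (adjusted p = 0.181).

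The gene that rose was C1qtnf4, a secreted protein with C1q-like domains and not a part of C1. It read 5.09 and 4.59 in CA1 and 5.62 and 5.46 in CA3 at T0, and 8.03 and 7.65 in CA1 and 6.03 and 6.72 in CA3 at 12 h. The groups did not overlap, and the difference of 1.92 ± 0.42 passed in limma (adjusted p = 0.0478), where 0.838% of all probe sets were called higher at 12 h. The call was lost when pairs were averaged, and it held in 4 of 16 fits without 1 array (adjusted p 0.0145 to 0.494 over its alternatives).

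Signals to microglia were listed as a group of 10 genes, of which 9 were measured and 0 were called at 12 h (median -0.0259). Of all probe sets, 1.23% were called lower and 0.838% higher, so nothing is read from this count. Csf1, a ligand of Csf1r, stayed between 7.21 and 7.77 on all arrays and differed by -0.10 ± 0.14 (adjusted p = 0.833). Tgfb1, a cytokine that maintains microglial identity, differed by -0.26 ± 0.16 (adjusted p = 0.471). Above T0 without passing were Cx3cl1, the ligand of Cx3cr1 made by neurons (1.47 ± 0.51, adjusted p = 0.161), and Cd200, a neuronal ligand of a myeloid inhibitory receptor (1.20 ± 0.52, adjusted p = 0.254), both named after their values were seen. The chemokine Ccl2, named after its values were seen, differed by -2.01 ± 1.67 (adjusted p = 0.632) and ranged from 5.07 to 11.40, with 8.83 and 11.40 in replicate 1 and 6.32 and 5.07 in replicate 2 at 30 min.

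**Figure D4:**
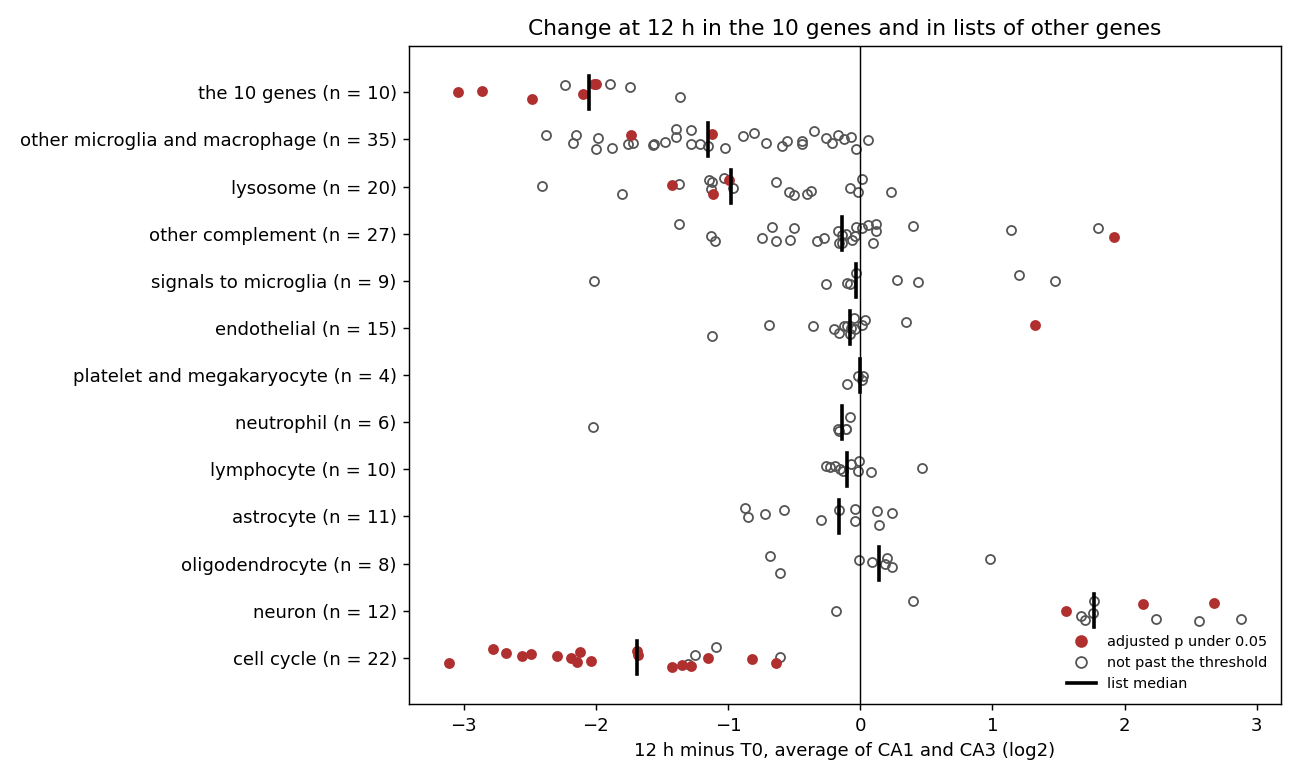
Log2 difference between 12 h and T0, averaged over CA1 and CA3 (horizontal axis), for the 10 genes and for 12 lists of other genes (vertical axis). Each circle is 1 gene, filled red where the adjusted p was under 0.05, and black bars are list medians. The 10 genes, which were chosen on this contrast, have a median of -2.05, the other microglia and macrophage genes -1.15, complement -0.138, cell cycle -1.69 and neuron genes 1.77.

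Markers of other cells that could carry some of the 10 genes were set beside them. At 12 h 1.23% of all probe sets were called lower and 0.838% higher, so 0 calls in a short list say little of its genes. For Pf4, 4 of 11 platelet and megakaryocyte genes were measured, their mean level ran from 4.0 to 4.12 on the T0 arrays and from 3.99 to 4.10 on those of 12 h, and 0 were called. Only 1 of the 4 had a mean log2 of at least 5, so a change in these cells may not have been visible. Ppbp and Itga2b, which define platelets, differed by 0.02 ± 0.15 and -0.10 ± 0.14. For Cd93, 15 of 17 endothelial genes were measured, with mean levels of 4.98 to 5.16 at T0 and 4.86 to 5.10 at 12 h. These levels too lay below the array medians of 5.81 to 5.94, and 7 of the 15 had a mean log2 of at least 5. Pecam1 differed by -0.20 ± 0.17, and Slc2a1, a glucose transporter of vessels and other cells that was named after its values were seen, was the 1 gene of the list that rose (1.32 ± 0.29, adjusted p = 0.0497; adjusted p = 0.321 on pair means). Lower at 12 h without passing were Eng, the TGF-beta co-receptor endoglin (7.34 at T0 and 6.22 at 12 h, -1.12 ± 0.37, adjusted p = 0.143; -0.78 at 30 min), and the adhesion molecule Esam (-0.69 ± 0.28, adjusted p = 0.223; -0.42 at 30 min), both named after their values were seen. Of the neutrophil and lymphocyte genes, 6 of 12 and 10 of 15 were measured, with medians of -0.135 and -0.101 at 12 h and 0 calls. S100a8 and Cd3e, with low means of 3.21 and 3.65, differed by -0.16 ± 0.13 and -0.15 ± 0.12. Lcn2, a lipocalin of neutrophils that astrocytes and other cells can also make, was the only gene of the neutrophil list with a mean log2 of at least 5; it averaged 9.81 at T0 and 7.79 at 12 h (-2.02 ± 1.02, adjusted p = 0.332; named after its values were seen).

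Of 20 lysosome genes measured of 22, 3 fell at 12 h in limma, where 1.23% of all probe sets were called lower, and the median was -0.973. The 3 were Gusb, beta-glucuronidase (-1.42 ± 0.27, adjusted p = 0.0307), Psap, the saposin precursor (-0.99 ± 0.18, adjusted p = 0.0287), and Ctsd, cathepsin D (-1.11 ± 0.24, adjusted p = 0.0475); Psap and Ctsd were named after their values were seen. Tested in limma on pair means, 0 of the 20 were called (adjusted p = 0.285, 0.241 and 0.271 for the 3), and 8 had an unadjusted p under 0.05. Lysosome genes are active in all cells of the slice. Their median was -0.32 in replicate 1 and -1.45 in replicate 2.

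Genes of the cell cycle, which any dividing cell of the slice can express, and of neurons also changed. Of 22 measured cell cycle genes 18 fell at 12 h (median -1.69; 1.23% of all probe sets were called lower), among them Mki67 (-2.78 ± 0.26) and Top2a (-2.29 ± 0.22; adjusted p = 0.00195 and 0.00202 in limma). Of 12 neuron genes 3 rose (median 1.77; 0.838% of all probe sets were called higher); Snap25, a synaptic protein, differed by 2.56 ± 0.95 without passing (adjusted p = 0.184). The neuron median was -0.40 in replicate 1 and 1.65 in replicate 2 at 30 min, so it moved with the replicate number, as the 10 genes did. Tested on pair means, 0 cell cycle and 0 neuron genes were called in limma (lowest adjusted p 0.104 and 0.249), and 20 and 3 had an unadjusted p under 0.05. Of 11 astrocyte and 8 oligodendrocyte genes 0 were called (medians -0.157 and 0.14), with Gfap at -0.04 ± 0.34 and Mbp at 0.98 ± 0.48. Values on one array are relative to all its genes, and the part of the neuron genes in the lower values of the 10 was not tested.

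Correlation with the mean of the C1q chains was computed for all measured genes, inside and outside the lists, as a description. The points of each correlation share arrays, RNA quality and the replicate split. Over the 16 arrays Cd68 and Aif1 ran closest among the other 7 genes (0.975 and 0.969), followed by Csf1r (0.919), Ptprc (0.899) and Lyz2 (0.891), with Pf4 (0.736) and Cd93 (0.556) furthest. After group means were taken off, which leaves the differences between the replicates of a group, Aif1 and Cd68 stood at 0.972 and 0.971, Ptprc at 0.714, and Pf4 and Cd93 at 0.295 and 0.397. Among the 8 genes without Pf4 and Cd93 the 28 pairwise correlations ran from 0.787 to 0.975, and the 17 pairs with Pf4 or Cd93 from 0.393 to 0.846.

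Outside the 10 genes, those most like C1q over 16 arrays were Ctss (0.955), Arpc1b, a subunit of the actin-nucleating Arp2/3 complex (0.949), Gusb (0.944), Axl, a receptor tyrosine kinase for the uptake of dying cells (0.941), and the lysosomal proteins Ctsz (0.937) and Npc2 (0.936). Leprot (0.929), Fcer1g (0.928), Apbb1ip (0.925) and Ctsh (0.925) completed the first 10. Arpc1b fell by 1.65 ± 0.26 at 12 h (adjusted p = 0.0164 in limma; 0.241 on pair means) and Axl differed by -1.44 ± 0.35 (adjusted p = 0.0667). Over deviations from group means the first 10 were Npc2 (0.961), Ypel5 (0.944), Scrg1 (0.943), Fcgr3a (0.941), Myd88 (0.933), Arpc1b (0.93), Apbb1ip (0.929), Laptm5 (0.928), Mrps28 (0.926) and Fcgr2b (0.924). Of these, Ypel5 and Mrps28 did not follow the course over time, with 12 h differences of 0.19 ± 0.20 and 0.05 ± 0.23 and correlations of 0.25 and 0.371 over the 16 arrays.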

How the data were processed

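Per the submitters' processing notes, the deposited log2 values were made by the authors with RMA, which corrects background, equalises the arrays' distributions and summarises probe sets; its version is not given in the sources used here. Of 15923 probe sets, 57 controls were set aside. The platform annotation named 1 gene for 12783 and several for 312, and the brightest probe set stands for each of 10411 genes; 12748 matched the RefSeq table by Entrez identifier, changing 0 symbols. The 15866 probe sets entered limma (3.58.1, R 4.3.3) as 8 group means, with 8 residual degrees of freedom and a prior worth 2.55; ± is the standard error, and Benjamini-Hochberg adjusted p under 0.05 was the threshold. The fit was also run on simulated data, in which each array varied independently. That run cannot show how the fit behaves where CA1 and CA3 arrays deviate together, as they did here. The number of arrays limits the precision.

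The genes, the 12 lists and the tests were chosen with earlier results of these data known. Named genes are the 10 genes, a set of preselected genes of the lists, list genes past the threshold, defining genes of other cells and the 10 most like C1q; others are marked as named after their values were seen.

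Deviations of CA1 and CA3 arrays of one time and number correlated at 0.57 to 0.67 (4 of 4 times), so CA1 and CA3 arrays of one number were treated as a pair, and the pair fit used the 8 differences or 8 means. Between arrays of one region and number, the correlations of T0 with later times were 0.21 to 0.31 in CA1 and -0.24 to 0.02 in CA3, and those between later times 0.30 to 0.66. The later times thus share a number effect, but 3 of the 6 with T0, which each time contrast uses, were not over 0.1, so the number as a block stayed an alternative. Alternatives were cyclic loess, the number as a block, the pair fit, the Bacillus signal as a covariate, exclusions of replicate 2 arrays, a mean log2 of at least 5, the mean of a gene's probe sets, and each array left out.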

Additional observations from a re-analysis of the deposited data

Results flagged for a closer look

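In 40 sets of 4 arrays (10 genes at 4 times, both regions together), 3 had 1 array standing apart from the other 3. Chance gives about 1 in 20, so this count lies near that of chance. At T0 the array standing apart was CA1 replicate 1 for Aif1 (6.79) and for Cd68 (8.95), the lowest in both. Both flags come from the same array and are not independent. The T0 mean of these genes rests on a set with 1 low array. At 3 h the CA3 replicate 2 array was the lowest for C1qc (8.84); the GAPDH 3' minus 5' signal of that array was 3.93. Regions are mixed in these sets, and no cause was tested.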

How the results depend on the processing

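The median difference of the 10 genes from T0 kept its sign and moved by less than 0.78 under all 24 alternatives at each time. This limit is the spread (SD) of that median between arrays of a group. It exceeds the 30 min difference (-0.70) and comes near that of 3 h (-0.825), so it cannot show stability there. The 30 min median was -0.23 with the Bacillus covariate, and that of 3 h -0.35 without the replicate 2 arrays of 3 h. Without 1 array the median ran from -1.02 to -0.33 at 30 min, from -1.11 to -0.528 at 3 h and from -2.34 to -1.78 at 12 h. The counts of calls moved. For the fit with the replicate number as a block, the share of all probe sets called is not given here, so nothing is read from its counts. Of the 10 genes, 1 at 30 min, 1 at 3 h and 6 at 12 h were called lower; 0, 0 and 0 were called in the pair fit (replicate block of CA1 and CA3), with the Bacillus covariate and without the 30 min and 12 h arrays of replicate 2. Without the replicate 2 arrays of 3 h the counts were 0, 0 and 2, with the mean of a gene's probe sets 0 at 3 h, and with the replicate number as a block 10 at 12 h. Without 1 array they ran from 0 to 1, from 0 to 1 and from 1 to 7. Of the other microglia and macrophage genes, 2 were called lower at 12 h; this was 18 with the number as a block, 4 at a mean log2 of at least 5, 1 without the replicate 2 arrays of 3 h, 0 in the pair fit, with the Bacillus covariate and without the 30 min and 12 h arrays of replicate 2, and 0 to 5 without 1 array. The 1 complement gene called higher at 12 h became 0 under cyclic loess, the pair fit, the covariate and without the 30 min and 12 h arrays of replicate 2, and 0 to 1 without 1 array; with the number as a block 1 complement gene was called lower. The CA1 against CA3 and region-by-time calls stayed at 0 in all fits. Of the 10 genes most like C1q, 4 were shared with the rank correlation. Fewer residual degrees of freedom go with the pair fit and the exclusions; other causes were not tested.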
